A study of Mus musculus with 4 samples.

Results

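Integrins are cell surface receptors built from an alpha and a beta subunit that hold a cell to its neighbours and to the matrix, and their grip is switched on from inside the cell. In the thymus they act, with their ligands and with selectin ligands, in the entry of progenitors, in contact with the stroma and in the movement of thymocytes between cortex and medulla. The set described here holds 10 genes of 53715 in the deposited tables: the integrin subunit genes Itgal, Itgb2, Itga4, Itgb1, Itgb7, Itgae and Itga6, and the ligand genes Icam1, Icam2 and Selplg. They were chosen by symbol, with earlier results of these data known. All 10 were found once each in the tables and all 10 passed the filter on low counts.

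The RNA came from double-positive (DP) thymocytes, sorted as CD4+CD8+ from C57BL/6 mice aged 6 to 8 weeks, and was sequenced in bulk. The knockout (KO) group of 2 libraries had the genotype LCKCre/+ Srsf1fl/fl, in which a Cre recombinase driven by the Lck promoter, active in early thymocytes, acts on a floxed Srsf1 gene. The wild-type (WT) group held 2 libraries, and whether the WT mice carried the Cre is not given in the labels. Srsf1 encodes a splicing factor of the SR protein family. The question was which transcripts differ between DP cells of the KO and WT groups. Nothing in the labels says that the 2 libraries of a group came from separate animals, so p-values measure only the spread between these samples, which may be technical.

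The libraries held 35862730 to 37033180 counts. Srsf1 itself had 1839 and 1772 counts in the KO libraries, against 4821 and 4485 counts in the WT libraries, so the labels and the targeted gene go together. Its counts were thus reduced in the KO but not lost, and SRSF1 protein was not measured. The DP identity was checked on 11 marker genes, all of them detected, whose summed level was 12480 to 12851 CPM (counts per 1000000 counts of the library) in KO and 9121 to 9518 CPM in WT. Of these 11 genes 5 were called higher (adjusted p under 0.05 by edgeR), 0 lower and 6 were not called. That is 45.5% called, against 14.5% of all genes tested. Rag1, the largest term of the sum, had 3833 and 3640 CPM in KO libraries, against 2092 and 1966 CPM in WT libraries. Markers of mature single-positive cells summed to 293 to 308 CPM in KO and 360 to 385 CPM in WT, and of their 10 genes 4 (Ccr7, S1pr1, Klf2 and Runx3) were called lower and 1 higher. That is 50% called, against 14.5% of all genes tested, and the sum joins genes that moved in opposite directions. Markers of macrophages and dendritic cells summed to 35.2 to 43.2 CPM in KO and 51.8 to 56.7 CPM in WT. Of their 12 genes tested 2 (Cd74 and H2-Aa) were called lower and 0 higher, 16.7% against 14.5% of all genes tested. Cd74 had 8.64 and 8.60 CPM in KO libraries, against 14.5 and 19.9 CPM in WT libraries. Cd68, Lyz2, Csf1r, Itgam and C1qa overlapped between the groups. Markers of B cells summed to 18.8 to 22.4 CPM in KO and 10.7 to 12.7 CPM in WT. Those of gamma-delta T cells summed to 60.2 to 66.8 CPM in KO and 37.8 to 47.5 CPM in WT. Trdc made up most of the gamma-delta sum, with 2093 and 1821 counts in KO libraries, against 1133 and 1436 counts in WT libraries. Trdc was the 1 gene called of 6 tested, 16.7% against 14.5% of all genes tested. In that list Sox13 alone was lower in KO, with 2.27 and 2.09 CPM, against 4.57 and 4.38 CPM in WT libraries, and was not called. Markers of double-negative thymocytes summed to 79.7 to 84.1 CPM in KO and 68.8 to 73.8 CPM in WT. Of their 7 genes 1 (Ptcra) was called higher and 1 (Hes1) lower, 28.6% against 14.5% of all genes tested. Hes1 had 4.08 and 3.96 CPM in KO libraries, against 8.76 and 11.3 CPM in WT libraries. This sum, too, joins genes that moved in opposite directions. Markers of NK and innate lymphocytes summed to 26.6 to 28.4 CPM in KO and 20.5 to 21.9 CPM in WT. Gzma made up most of the NK sum, with 20.5 and 21.7 CPM in KO libraries, against 15.4 and 11.6 CPM in WT libraries. Of the 6 NK genes tested 0 were called, with a median log2 fold change of -0.54. Cd79b made up most of the B cell sum, with 15.6 and 17.7 CPM in KO libraries, against 10.3 and 7.61 CPM in WT libraries. It was the 1 gene called of 5 tested, 20% against 14.5% of all genes tested. The part of these cell types in the results below was not tested. In sorted bulk cells, fewer cells of a type and less RNA per cell cannot be told apart.

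Of the 10 adhesion genes of the set, the ligand gene Icam2 alone passed the test, and its level in DP thymocytes was higher in the KO. In counts, 1 of the 10 genes rose, 0 fell and 9 did not pass an adjusted p of 0.05 by the edgeR quasi-likelihood test across 16588 genes. Over all genes tested 14.5% were called, 6.63% higher and 7.89% lower, so 1 call among 10 is near that background. At an unadjusted p under 0.05, 1 was higher (Icam2) and 1 lower (Itga6), and DESeq2 and limma-voom called Icam2 higher and none of the 10 lower. The median log2 fold change of the 10 genes was 0.07, against 0.00 over all genes tested. For 4 of the 10 genes (40%) the 2 groups of libraries did not overlap in CPM, against 55.9% of all genes tested.

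**Figure D1:**
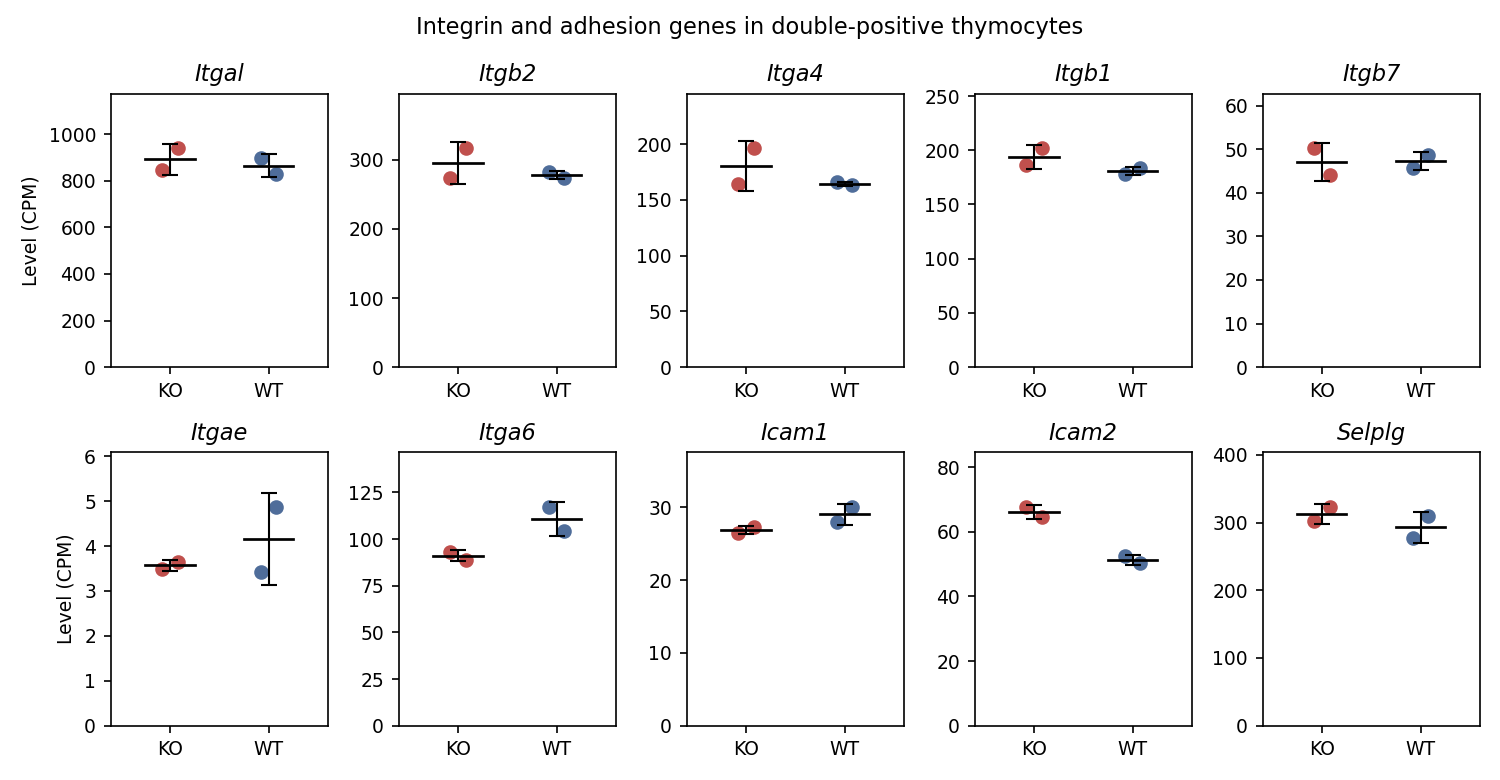
Level in CPM (counts per 1000000 counts of the library, vertical axis from 0) of the 10 genes in the 2 KO and 2 WT libraries. Points are libraries, the long bar is the group mean and the error bar 1 SD; Icam2 lies between 64.6 and 67.8 CPM in KO and between 50.3 and 52.4 CPM in WT, and most other genes overlap.

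The transcripts of LFA-1, the main lymphocyte integrin, were the most abundant per gene length. LFA-1 joins the alpha subunit encoded by Itgal and the beta subunit encoded by Itgb2, and it binds the ICAM ligands. Itgal (chromosome 7, 127296260 to 127335138, plus strand, GRCm38, 32 exon blocks) had 845 and 939 CPM in KO libraries, against 899 and 831 CPM in WT libraries. The KO and WT values interleaved, and the log2 fold change was 0.05 (SE 0.07, 95% interval -0.12 to 0.21, adjusted p = 0.774 by edgeR). Itgb2 (chromosome 10, 77530252 to 77565708, plus strand) had 273 and 317 CPM in KO libraries, against 282 and 274 CPM in WT libraries. One KO library was the lowest of all and the other the highest, and the log2 fold change was 0.09 (SE 0.09, 95% interval -0.10 to 0.27, adjusted p = 0.596 by edgeR).

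The alpha 4 integrins were likewise not called. Itga4 encodes the alpha chain that pairs with beta 1 to form VLA-4, a receptor for VCAM-1 and fibronectin, or with beta 7 to form a gut-homing receptor for MAdCAM-1. Itga4 (chromosome 2, 79255426 to 79333123, plus strand) had 165 and 196 CPM in KO libraries, against 166 and 163 CPM in WT libraries. KO replicate 2 alone stood above the other libraries, and the log2 fold change was 0.14 (SE 0.09, adjusted p = 0.403 by edgeR). It was 0.27 and called without KO replicate 1 (adjusted p = 0.0449), and -0.00090 without KO replicate 2 (adjusted p = 0.997). Of the 13978 exonic bases of Itga4, 1124 also lie in exons of Cerkl on the other strand, and Cerkl had at most 103 counts in any library, against at least 5951 counts for Itga4.

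Both beta partners stayed within narrow bounds. Itgb1, the shared beta 1 subunit (chromosome 8, 128685654 to 128733200, plus strand), had 186 and 202 CPM in KO libraries, against 178 and 183 CPM in WT libraries. The KO libraries were above the WT libraries, by less than the test could call (log2 fold change 0.10, SE 0.08, adjusted p = 0.463 by edgeR). Itgb7, the beta 7 subunit (chromosome 15, 102215995 to 102231944, minus strand), had 50.2 and 44.1 CPM in KO libraries, against 45.8 and 48.8 CPM in WT libraries. The groups overlapped, and the log2 fold change was -0.002 (SE 0.12, 95% interval -0.27 to 0.26, adjusted p = 0.995 by edgeR).

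Itgae was the least abundant of the 10 and the least precisely measured. Itgae encodes the alpha E chain (CD103), which pairs with beta 7 and binds E-cadherin on epithelial cells. Itgae (chromosome 11, 73090583 to 73147446, plus strand) had 129 and 133 counts in KO libraries, against 123 and 178 counts in WT libraries. The KO values lay between the WT values. Its level was 3.57 ± 0.12 CPM in KO and 4.15 ± 1.02 CPM in WT (SD, n = 2 each), and its log2 fold change was -0.22 (SE 0.39, adjusted p = 0.805 by edgeR). The 95% interval of -1.06 to 0.63 holds changes of a size that would have been called in the more abundant genes.

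Itga6 was the integrin subunit of the set with the lowest fold change. It encodes the alpha 6 chain, which pairs with beta 1 as a laminin receptor. Itga6 (chromosome 2, 71745616 to 71858416, plus strand, 31 exon blocks) had 93.3 and 88.9 CPM in KO libraries, against 117 and 104 CPM in WT libraries. Both KO libraries were below both WT libraries, which held for 28.1% of all genes tested. The log2 fold change was -0.28 (SE 0.09, unadjusted p = 0.00945, adjusted p = 0.0598 by edgeR), so Itga6 missed the threshold. It passed with the replicate number as a block (adjusted p = 0.0481), with no filter on low counts (0.0330), with a filter of at least 1 CPM (0.0336) and without WT replicate 2 (0.0374). Without WT replicate 1 it was -0.19 with an adjusted p of 0.438.

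**Figure D2:**
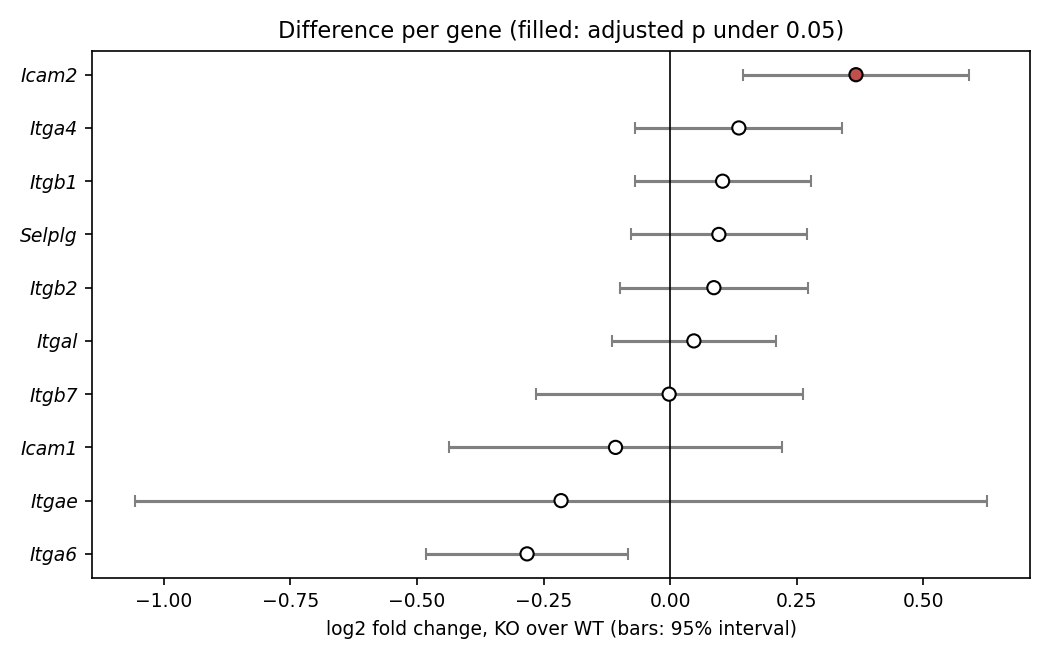
Log2 fold change of KO over WT (horizontal axis) for each of the 10 genes, with the 95% interval of the edgeR quasi-likelihood fit, unadjusted. The filled point is Icam2 at 0.37, Itga6 is lowest at -0.28, and the interval of Itgae is the widest.

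Among the ligands, the LFA-1 ligand gene Icam2 rose and Icam1 did not pass the test. Icam2 encodes ICAM-2, an immunoglobulin family ligand with steady expression on leukocytes and endothelium. Icam2 (chromosome 11, 106377656 to 106388075, minus strand, 7 exon blocks, no overlapping annotated gene) had 67.8 and 64.6 CPM in KO libraries, against 52.4 and 50.3 CPM in WT libraries. Both KO libraries were above both WT libraries, as in 27.8% of all genes tested. The fold was 1.29 (95% interval 1.11 to 1.505), or 0.37 on the log2 scale (SE 0.10, adjusted p = 0.0312 by edgeR). The direction was the same under every alternative tried, with log2 fold changes of 0.34 to 0.40, but Icam2 missed the threshold when KO replicate 1 (adjusted p = 0.0837), WT replicate 1 (0.0704) or WT replicate 2 (0.143) was left out, and with limma on RPKM (0.113 to 0.130). Icam2 is also an endothelial gene. Of the 5 endothelial markers listed, Emcn had 0 counts in every library, Tek at most 1 and Cdh5 at most 4. Kdr had 0 and 14 counts in KO libraries, against 12 and 0 counts in WT libraries. Pecam1, which thymocytes also carry, had 118 ± 3 CPM in KO and 129 ± 9 CPM in WT (SD, n = 2 each) and made up nearly all of the summed level of 116 to 120 CPM in KO and 123 to 136 CPM in WT.

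Icam1, the inducible ICAM ligand (chromosome 9, 21015985 to 21028817, plus strand), had 26.5 and 27.3 CPM in KO libraries, against 27.9 and 30.1 CPM in WT libraries. The KO values were just below the WT values, and Icam1 did not pass the test (log2 fold change -0.11, SE 0.15, adjusted p = 0.735 by edgeR). Of its 4360 exonic bases, 511 also lie in an unnamed gene on the other strand. Selplg encodes PSGL-1, the main ligand of P-selectin. Selplg (chromosome 5, 113818536 to 113832644, minus strand) had 302 and 323 CPM in KO libraries, against 277 and 309 CPM in WT libraries. The groups overlapped, and the log2 fold change was 0.10 (SE 0.08, 95% interval -0.08 to 0.27, adjusted p = 0.505 by edgeR). KO replicate 2 had the highest level of the 4 libraries for Itgal, Itgb2, Itga4, Itgb1 and Selplg. For 8 of the 10 genes the 95% interval lay within 0.5 log2 units on either side of no change, Icam2 and Itgae being the exceptions.

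For the order of levels between genes the authors' deposited RPKM values were used, which divide by gene length. Itgal was first in every library with 126 to 143 RPKM, then Itgb2 with 89.5 to 104 RPKM, Selplg with 64.8 to 75.7 RPKM and Itgb1 with 43.7 to 49.5 RPKM. Icam2 followed with 26.4 to 35.6 RPKM, Itgb7 with 15.9 to 18.1 RPKM, Itga4 with 11.7 to 14.0 RPKM and Itga6 with 9.85 to 13.0 RPKM. Icam1 had 6.07 to 6.90 RPKM and Itgae 0.749 to 1.06 RPKM. The ranges of neighbours over the 4 libraries did not overlap except for Itga4 and Itga6. Itga4 averaged 12.9 ± 1.6 RPKM in KO and 11.8 ± 0.1 RPKM in WT, and Itga6 10.1 ± 0.3 RPKM in KO and 12.3 ± 1.0 RPKM in WT (SD, n = 2 each). This pair therefore stood in one order in the KO means and in the other in the WT means, and the order was not tested.

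**Figure D3:**
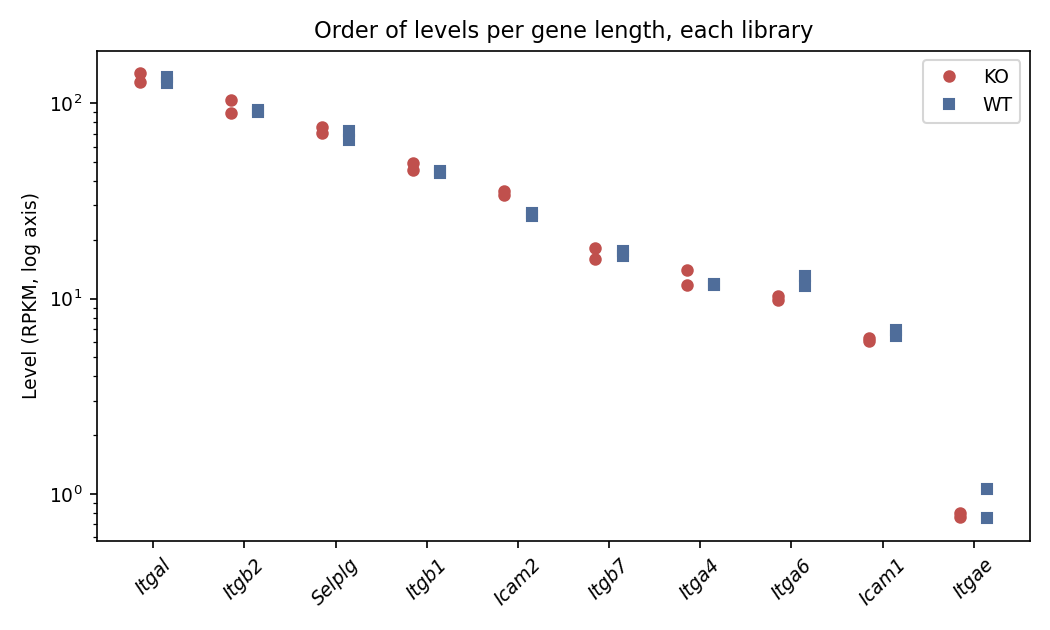
Level per gene length (RPKM, log axis) of the 10 genes in each library, circles for KO and squares for WT, ordered by the mean of the 4 libraries. The order runs from Itgal at 126 to 143 RPKM to Itgae at 0.749 to 1.06 RPKM, and only the ranges of Itga4 and Itga6 overlap.

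Integrin subunits reach the surface as pairs, so the ratio of alpha to beta transcripts was taken within each library from the RPKM values. Itgal over Itgb2 was 1.44 and 1.38 in KO libraries, against 1.48 and 1.41 in WT libraries. Itga4 over Itgb1 was 0.258 and 0.284 in KO libraries, against 0.271 and 0.260 in WT libraries. Both ratios overlapped between the groups. Itga4 over Itgb7 was 0.650 and 0.883 in KO libraries, against 0.719 and 0.664 in WT libraries, and here the KO libraries lay on either side of the WT libraries. Itgae over Itgb7 was 0.0419 and 0.0501 in KO libraries, against 0.0453 and 0.0604 in WT libraries, again with overlap. Itga6 over Itgb1 was 0.226 and 0.199 in KO libraries, against 0.297 and 0.258 in WT libraries, the only one of these ratios whose groups did not overlap, with a difference in mean log2 ratio of -0.38. That separation follows from the 2 genes, since every KO library was lower in Itga6 and higher in Itgb1 than every WT library. Among all genes tested, 55.9% did not overlap in CPM. An exact two-sided permutation test of 2 against 2 libraries cannot go below p = 0.333, so no test of the ratios was made. Transcript ratios do not measure surface protein.

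**Figure D4:**
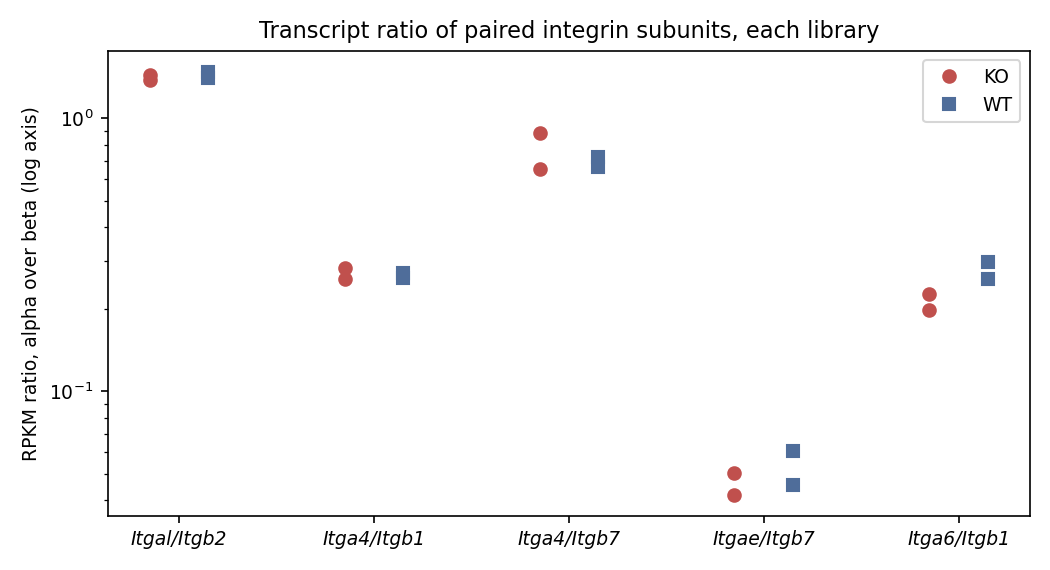
Ratio of alpha to beta subunit transcripts (RPKM over RPKM, log axis) for the integrin pairs in each library, circles for KO and squares for WT. Itga6 over Itgb1 lies at 0.199 and 0.226 in KO and at 0.258 and 0.297 in WT, and the other ratios overlap between the groups.

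Of the 19 other integrin subunit genes, 14 passed the filter on low counts, of which 2 fell, 0 rose and 12 were not called, 14.3% against 14.5% of all genes. The median log2 fold change was -0.13. At an unadjusted p under 0.05, 0 were higher, and DESeq2 and limma-voom also called 0 higher. Itga3, an alpha chain of laminin receptors, fell to 6.48 and 7.67 CPM in KO libraries, against 21.5 and 23.1 CPM in WT libraries (log2 fold change -1.65, SE 0.21, adjusted p = 0.000337 by edgeR). The platelet integrin gene Itga2b fell to 2.19 and 2.47 CPM in KO libraries, against 8.87 and 6.98 CPM in WT libraries (-1.76, SE 0.35, adjusted p = 0.00491). In both genes every KO library was below every WT library. The platelet genes Pf4 and Ppbp had 0 counts in every library, and the list of erythroid and platelet markers summed to 2.73 to 5.17 CPM in KO and 9.59 to 11.3 CPM in WT, and Itga2b, which is on that list, made up most of it in both WT libraries. Without KO replicate 2, 4 of these subunit genes fell. Itga5, the fibronectin receptor chain, had 34.9 and 35.3 CPM in KO libraries, against 33.7 and 32.0 CPM in WT libraries, and did not pass the test.

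The genes that switch integrins on from inside the cell, and those of the adhesion plaque, moved in both directions. Of 43 listed, 37 passed the filter, 7 rose, 3 fell and 27 were not called. That is 27.0% called against 14.5% of all genes, with a median log2 fold change of 0.11 against 0.00 for all genes, and this difference was not tested. The list was chosen with earlier results of these data known, so its called share may depend on that choice. Fermt3 encodes kindlin-3, which binds the tails of beta subunits in blood cells. It rose to 373 and 362 CPM in KO libraries, against 261 and 232 CPM in WT libraries (log2 fold change 0.58, SE 0.08, adjusted p = 0.000508 by edgeR). Tln1 encodes talin, the other binder of beta tails. It rose to 1217 and 1259 CPM in KO libraries, against 1057 and 1020 CPM in WT libraries (0.26, SE 0.06, adjusted p = 0.0155), and missed the threshold without WT replicate 2 (adjusted p = 0.142). Small parts of both genes lie in exons of a neighbour on the other strand, 89 bases of Fermt3 in Trpt1 and 360 bases of Tln1 in Creb3.

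Around the small GTPase Rap1, an activator of integrins, its 2 paralogs differed. Rap1a rose to 130 and 113 CPM in KO libraries, against 91.8 and 90.0 CPM in WT libraries (log2 fold change 0.42, SE 0.09, adjusted p = 0.00849 by edgeR). Rap1b, the more abundant in counts, fell to 322 and 316 CPM in KO libraries, against 399 and 359 CPM in WT libraries (-0.25, SE 0.08, adjusted p = 0.0471). The Rap1b call was lost with upper-quartile factors (adjusted p = 0.0580), with the replicate block (0.0542) and without KO replicate 1 (0.0561), KO replicate 2 (0.0524) or WT replicate 1 (0.423). Rap1a and Rap1b are similar in sequence, so how reads were split between them is uncertain. Sipa1, which switches Rap1 off, rose to 429 and 496 CPM in KO libraries, against 335 and 291 CPM in WT libraries (0.56, SE 0.09, adjusted p = 0.00171). The Rap1 exchange factor genes Rapgef1 (-0.11), Rapgef2 (-0.33), Rapgef6 (-0.09) and Rasgrp2 (-0.24), the Ras exchange factor gene Rasgrp1 (-0.06) and the Rap1 effector genes Apbb1ip (-0.03) and Rassf5 (0.13) did not pass the test at these log2 fold changes.

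Of the genes that link adhesion to actin, Coro1a, a coronin needed for T cell survival and migration, rose to 1389 and 1398 CPM in KO libraries, against 1005 and 1002 CPM in WT libraries (log2 fold change 0.47, SE 0.06, adjusted p = 0.000269 by edgeR). Rsu1, which binds the PINCH adaptor at adhesion sites, rose to 24.9 and 29.8 CPM in KO libraries, against 12.8 and 17.5 CPM in WT libraries (0.86, SE 0.20, adjusted p = 0.0131), and missed the threshold without WT replicate 1 (adjusted p = 0.0545). Vasp, an actin elongation factor, rose to 177 and 193 CPM in KO libraries, against 160 and 139 CPM in WT libraries (0.31, SE 0.09, adjusted p = 0.0430), and missed the threshold without KO replicate 2 (0.0877) or WT replicate 2 (0.282). In the other direction Rhoh, an atypical small GTPase of blood cells, fell to 544 and 555 CPM in KO libraries, against 775 and 787 CPM in WT libraries (-0.51, SE 0.06, adjusted p = 0.000308). Ptk2, which encodes focal adhesion kinase, fell to 4.32 and 5.08 CPM in KO libraries, against 8.37 and 11.01 CPM in WT libraries (-1.04, SE 0.30, adjusted p = 0.0340), and missed the threshold without KO replicate 1 (adjusted p = 0.119) or WT replicate 2 (0.210). Its relative Ptk2b, the more abundant in counts, had 248 and 282 CPM in KO libraries, against 272 and 285 CPM in WT libraries, and did not pass the test.

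**Figure D5:**
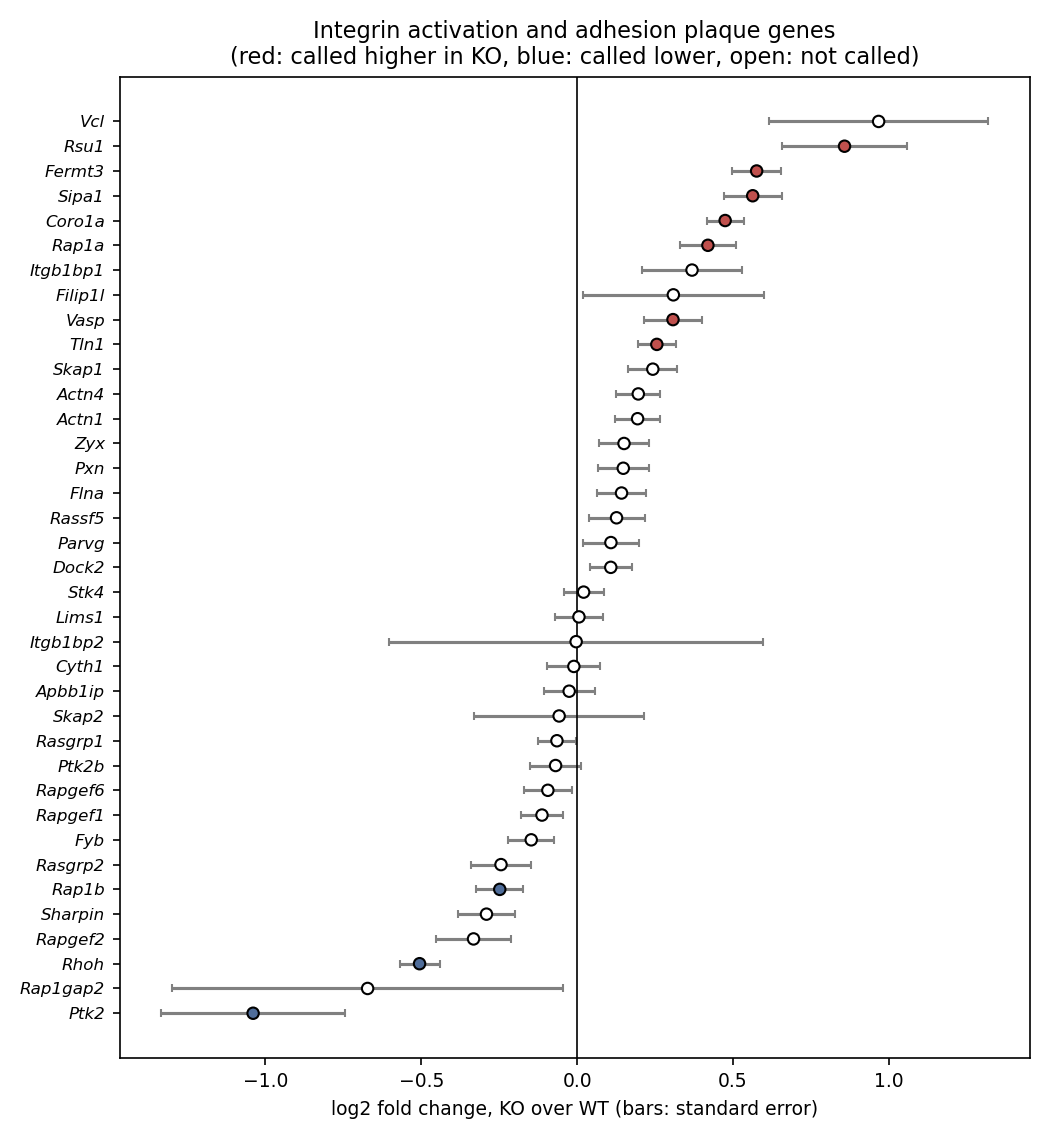
Log2 fold change of KO over WT (horizontal axis) with its standard error for the 37 tested genes of integrin activation and the adhesion plaque. The 7 genes called higher include Rsu1 (0.86), Fermt3 (0.58), Sipa1 (0.56), Coro1a (0.47) and Rap1a (0.42), and the 3 called lower are Ptk2 (-1.04), Rhoh (-0.51) and Rap1b (-0.25).

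The ICAM genes aside, 4 genes for ligands of these integrins (Vcam1, Madcam1, Fn1 and Cdh1) had few counts in the sorted cells. Markers of thymic epithelium and stroma summed to 26.2 to 28.4 CPM in KO and 30.6 to 33.7 CPM in WT, with Krt5 and Foxn1 at 0 counts in every library and Epcam and Ly75 making up most of the sum. Of this list, the collagen gene Col1a1 had 15 and 140 counts in KO libraries, against 41 and 20 counts in WT libraries, highest in KO replicate 2. Madcam1, the alpha 4 beta 7 ligand, had 0 counts in every library. Vcam1, a VLA-4 ligand, had 22 and 70 counts in KO libraries, against 14 and 0 counts in WT libraries. Cdh1 (E-cadherin), the ligand of the Itgae product, had 80 and 16 counts in KO libraries, against 95 and 122 counts in WT libraries. Fn1 (fibronectin) had 88 and 498 counts in KO libraries, against 72 and 95 counts in WT libraries, so KO replicate 2 set the difference. Vcam1, Fn1 and Col1a1 were each highest in KO replicate 2, and the part of stromal RNA in these values was not tested. Vcam1, Cdh1 and Fn1 did not pass the test (adjusted p = 0.238, 0.280 and 0.119 by edgeR). Fn1 was called by DESeq2 (adjusted p = 0.0301), with no low-count filter (0.000128), with the replicate block (0.00560), without WT replicate 1 (0.00300) and without KO replicate 1 (1.05e-05), and its log2 fold change was 0.04 without KO replicate 2. Vcam1 was called higher without WT replicate 1 (adjusted p = 0.00610), and Cdh1 was called lower without KO replicate 1 (0.0136).

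Among 31 other adhesion receptor and ligand genes, 28 symbols were found, 21 passed the filter, 3 rose, 2 fell and 16 were not called. That is 23.8% called against 14.5% of all genes, with a median log2 fold change of 0.16 against 0.00, and this difference was not tested. This list, too, was chosen with earlier results of these data known, so its called share may depend on that choice. L1cam, a homophilic adhesion molecule best known from neurons, rose to 24.1 and 23.8 CPM in KO libraries, against 8.14 and 5.94 CPM in WT libraries (log2 fold change 1.77, SE 0.22, adjusted p = 0.000286 by edgeR). Cd47, a surface partner of integrins, rose to 352 and 298 CPM in KO libraries, against 261 and 211 CPM in WT libraries (0.46, SE 0.11, adjusted p = 0.0115). Pvr, a nectin-like ligand, fell to 154 and 152 CPM in KO libraries, against 230 and 221 CPM in WT libraries (-0.56, SE 0.08, adjusted p = 0.000489). Ncam1, a homophilic adhesion molecule of neurons and NK cells, fell to 1.38 and 0.742 CPM in KO libraries, against 3.37 and 4.41 CPM in WT libraries (-1.87, SE 0.52, adjusted p = 0.0303). It missed the threshold without KO replicate 2 (0.0947) or WT replicate 2 (0.147), where 1 gene of the list fell in each case. Without WT replicate 1, 5 genes of the list rose.

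PSGL-1 binds selectins only when it carries the right sugars and sulfates. Of 18 enzymes and transporters listed for this, 16 passed the filter, 2 fell, 0 rose and 14 were not called. The called share of 12.5% is near the 14.5% of all genes, and the median log2 fold change was -0.11 against 0.00. At an unadjusted p under 0.05, 3 were higher (Tpst2, Galnt1 and Slc35c1), DESeq2 and limma-voom called 0 higher, and 1 was called higher without KO replicate 1. B4galt1, a galactosyltransferase, fell to 91.3 and 88.3 CPM in KO libraries, against 154 and 176 CPM in WT libraries (log2 fold change -0.87, SE 0.09, adjusted p = 6.32e-05 by edgeR). Gcnt3, a branching enzyme of O-glycans, fell to 0.837 and 1.48 CPM in KO libraries, against 3.82 and 4.90 CPM in WT libraries (-1.90, SE 0.50, adjusted p = 0.0226). It missed the threshold without KO replicate 1 (0.0789) or WT replicate 2 (0.1003), where 1 gene of the list fell in each case. Fut7, the fucosyltransferase of selectin ligands, had at most 10 counts in any library and Gcnt1 at most 10, so neither was tested, and Selplg itself was not called.

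Of 12 tetraspanin and other membrane partners of integrins, 2 rose, 3 fell and 7 were not called. The called share was 41.7%, against 14.5% of all genes, with a median log2 fold change of 0.06 against 0.00. Whether these shares differ was not tested, and the list was chosen with earlier results of these data known, so its share may depend on that choice. Slc3a2, the CD98 heavy chain that binds beta 1 tails, fell to 167 and 186 CPM in KO libraries, against 293 and 261 CPM in WT libraries (log2 fold change -0.65, SE 0.09, adjusted p = 0.000508 by edgeR). Bsg (basigin) rose to 144 and 129 CPM in KO libraries, against 102 and 107 CPM in WT libraries (0.39, SE 0.09, adjusted p = 0.00983), and Cd47 belongs to this list too. Tspan32, a tetraspanin of blood cells, fell to 34.4 and 40.2 CPM in KO libraries, against 50.8 and 50.8 CPM in WT libraries (-0.44, SE 0.13, adjusted p = 0.0382). It missed the threshold without KO replicate 1 (0.193), WT replicate 1 (0.104) or WT replicate 2 (0.0846). Tspan33 was called lower (adjusted p = 0.0172) with 0 and 0 counts in KO libraries, against 37 and 37 counts in WT libraries, and missed the threshold without WT replicate 1 (0.0610) or WT replicate 2 (0.0597). Without either WT library, 1 gene of the list fell. Cd81 (0.01), Cd82 (0.06), Cd53 (0.07) and Cd37 (-0.08) did not pass the test at these log2 fold changes.

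The genes whose levels across the 4 libraries were most like those of Icam2 were sought among 6965 other genes averaging 20 CPM or more, by the Euclidean distance of centred log2 CPM. They were Rac2 (distance 0.0145), Ppil2 (0.0152) and Trappc12 (0.0170). Rac2, a small GTPase of blood cells, had 637 and 614 CPM in KO libraries, against 496 and 479 CPM in WT libraries (log2 fold change 0.36, adjusted p = 0.00316 by edgeR). Ppil2 and Trappc12 rose too, by 0.38 and 0.35 on the log2 scale (adjusted p = 0.0101 and 0.0328), and Trappc12, like Icam2, missed the threshold without KO replicate 1 (0.0806), WT replicate 1 (0.0672) or WT replicate 2 (0.154). Over 4 libraries this likeness is a description only. The 3 genes were picked by it, so their rise in KO follows from the choice and is no separate result.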

How the data were processed

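Gene counts were deposited by the authors for 4 libraries, 2 KO and 2 WT, with totals of 35862730 to 37033180, so 1 count was worth about 0.027 to 0.028 CPM. Per the submitters' processing notes the tools were FastQC 0.11.5, cutadapt 1.17, STAR 2.6.0a, HTSeq 0.6.1 and DESeq2 1.24.0, with build GRCm38 (mm10). Neither the strand setting nor the annotation release is given in the sources used here. Reads in overlapping genes may therefore be dropped or shared. The RPKM table deposited by the authors equals count over gene length and library total within a relative tolerance of 1e-06.

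Counts were tested with edgeR 4.0.16 (quasi-likelihood, robust, TMM, filterByExpr, genotype only) in R 4.3.3, with two-sided p-values adjusted by Benjamini-Hochberg over 16588 genes and a call at an adjusted p under 0.05. Standard errors came from the log2 fold change and the F statistic, and 95% intervals from a t distribution with the fit's degrees of freedom. CPM divides by the total count. Positions and overlaps are from GENCODE mouse release 21, matched by gene identifier. Alternatives were other factors and filters, DESeq2 1.42.0, limma-voom and limma 3.58.1 on log2 RPKM plus 0.5 or 0.1, a replicate block and leaving out each library, where a lone library was assumed to vary like the other group. The fits were tested on simulated data.

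Named genes were Srsf1, the 10 members, up to 8 called genes a list with a mean of at least 1 CPM, 4 ligand genes (Vcam1, Madcam1, Fn1 and Cdh1) and the 3 genes most like the member with the smallest adjusted p. Rap1b, Vasp and Tspan33, outside that rule, and further uncalled genes were named after their values were seen. The members and lists were chosen with earlier results of these data known. No set test was made. One called gene of the lists is counted but not reported here by name. Python 3.11.15 and matplotlib 3.10.9 served for the plots.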

Additional observations from a re-analysis of the deposited data

How the results depend on the processing

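With limma on log2 of RPKM plus 0.5, 0 genes of all tested were called in either direction, and with 0.1 added 22 were higher and 60 lower. Under both, 0 of the 10 adhesion genes were called higher. The other settings kept the counts over all genes within 1.5 times of 1100 higher and 1308 lower. One of the 10, Itga6, was called lower (1 gene) with no low-count filter, with a filter of at least 1 CPM and with the replicate block. Fits without 1 library each gave 0 to 1 of the 10 genes higher and 0 to 1 lower, and the gene called higher without KO replicate 1 was Itga4, not Icam2. Several uncalled members changed sign when a library was left out, with log2 fold changes of -0.036 to 0.138 for Itgal, -0.028 to 0.205 for Itgb2, -0.00090 to 0.273 for Itga4, -0.082 to 0.086 for Itgb7 and -0.44 to 0.062 for Itgae. Itgb7 was also at 0.0097 with upper-quartile factors. The cause was not tested.

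Deviations from the group means of same-numbered libraries correlated at -0.04 over the tested genes. With 2 libraries a group this is 1 correlation, so it cannot decide whether the replicate numbers pair the libraries. With the replicate block 1304 genes were higher and 1505 lower. In the genes named beside the members, a filter of at least 1 CPM gave 5 activation genes lower and no filter 6, against 3. Depth limits Itgae most, with 123 to 178 counts a library, and the low-count ligands.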

Other observations

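Ilk, which encodes the integrin-linked kinase of the adhesion plaque, had 0 and 0 counts in KO libraries, against 0 and 4 counts in WT libraries. Of its 2744 exonic bases in the annotation, 2461 (89.7%) also lie in exons of Taf10 or Rrp8 on the other strand, and Taf10 had 2711 and 3387 counts in KO libraries, against 2945 and 2505 counts in WT libraries. The part of this overlap in the counts near 0 was not tested, and the strand setting of the counting is not given. Whether Ilk reads were dropped or assigned to a neighbour was not tested either. The counts near 0 are not read here as a measure of Ilk expression.

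Integrin subunits of other lineages were present at low level and varied between libraries of a group. Itgb3 had 5.13 and 10.8 CPM in KO libraries, against 10.7 and 13.6 CPM in WT libraries. Itgb4 had 3.21 and 2.09 CPM in KO libraries, against 5.74 and 5.09 CPM in WT libraries. Itgax, a dendritic cell integrin, had 0 and 19 counts in KO libraries, against 30 and 28 counts in WT libraries. None of these passed the test. Itgb6 had 0 counts in every library.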
